A study of Caenorhabditis elegans with 4 samples.

Results

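The 6 Hox genes of Caenorhabditis elegans and 4 genes for their DNA-binding partners were followed in first-stage (L1) larvae of an lsm-8 mutant. The 10 genes were taken by WormBase name from a table of read counts for 20392 genes. The Hox genes are ceh-13, lin-39, mab-5, egl-5, php-3 and nob-1, and the cofactor genes are unc-62, ceh-20, ceh-40 and ceh-60. All 10 passed the filter on low counts.

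Total RNA had been sequenced from 4 libraries. The mutant libraries, 2 in number, came from strain GW1125, in which lsm-8, on chromosome IV, carries the allele xe17 with a red pharyngeal marker (myo2p::mcherry::unc54 3'UTR). This allele is kept over the balancer nT1[qIs51](IV;V), which marks the pharynx green, and larvae without green were sorted, so they lacked the balancer and are given by the labels as lsm-8-/-. Homozygous larvae of a balanced strain have heterozygous mothers, and LSM-8 protein from the mother was not measured. The wild-type libraries, also 2, came from GW1, the Bristol strain N2, sorted for size and absence of green in the same way. All larvae hatched without food and were fed again for 2.5 h after sorting, and no age beyond the L1 stage is labelled. Separate cultures are not stated for the libraries of a genotype. The p-values therefore reflect only how much these libraries vary, which may be technical.

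Hox proteins are homeodomain transcription factors that tell cells where they lie between head and tail. They bind DNA weakly on their own and do so with partners of the PBC class (homologs of fly Extradenticle) and the Meis class (homologs of fly Homothorax), which carry homeodomains of another type. Outside their domains Hox genes are classic targets of the repressive histone mark H3K27me3, which Polycomb proteins lay down. LSM-8 belongs to the nuclear LSM2-8 ring, and the study asks how that ring and the exonuclease XRN-2 act on RNA from genes with this mark. No chromatin data were analysed here.

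The libraries held 101230177 and 90749329 counts in the mutant and 54419838 and 50755251 counts in wild type. Levels are in CPM, the count per 1000000 counts of a library, after scaling with TMM, a method that sets libraries level over most genes. The targeted gene lsm-8 stood at 3.25 and 3.73 CPM in the mutant libraries, against 15.4 and 15.9 CPM in the wild-type libraries. Markers of other stages were low in both genotypes. Of 10 sperm genes, 9 stayed under 1 CPM in all libraries and msp-3, msp-10, msp-19 and msp-40 had no count, and 8 of 10 early embryo genes stayed under 1 CPM. The remaining sperm gene, spe-9, had 0.712 and 0.668 CPM in the mutant libraries and 1.77 and 1.98 CPM in wild type. Its log2 fold change was -1.44 (SE 0.22, edgeR adjusted p = 7.70e-05). The embryo gene vet-2 was also called lower (-0.42, edgeR adjusted p = 0.0476), a call held in 3 of 14 alternative analyses. The exonuclease gene xrn-2 stood at 109.6 and 105.3 CPM in mutant larvae and at 83.0 and 74.9 CPM in wild-type larvae (log2 fold change 0.44, SE 0.06, edgeR adjusted p = 2.58e-05). Because whole larvae were used, fewer cells of a type and less RNA per cell cannot be told apart.

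Of the 10 genes, 4 rose in the mutant and none fell. The Hox genes lin-39, mab-5 and php-3 rose 1.43-fold, 1.37-fold and 1.28-fold, and the Meis gene unc-62 rose 1.41-fold. The 6 others, among them the PBC gene ceh-20, did not pass the test, which was the quasi-likelihood test of edgeR with Benjamini-Hochberg adjustment over all genes and a threshold of 0.05. Over all 16771 genes tested, 28.2% were called in either direction, 13.5% higher and 14.8% lower, so called genes were common in this comparison. Scaled by library totals alone, 60.5% of 4827 calls were higher, against 47.7% of 4737 calls with TMM, and it was 60.7% of 4781 calls on the deposited log2 scale. The 4 calls among the Hox and cofactor genes stood under all 3 scalings. The median log2 fold change was 0.28 over the 10 genes and -0.0067 over all genes tested.

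**Figure D1:**
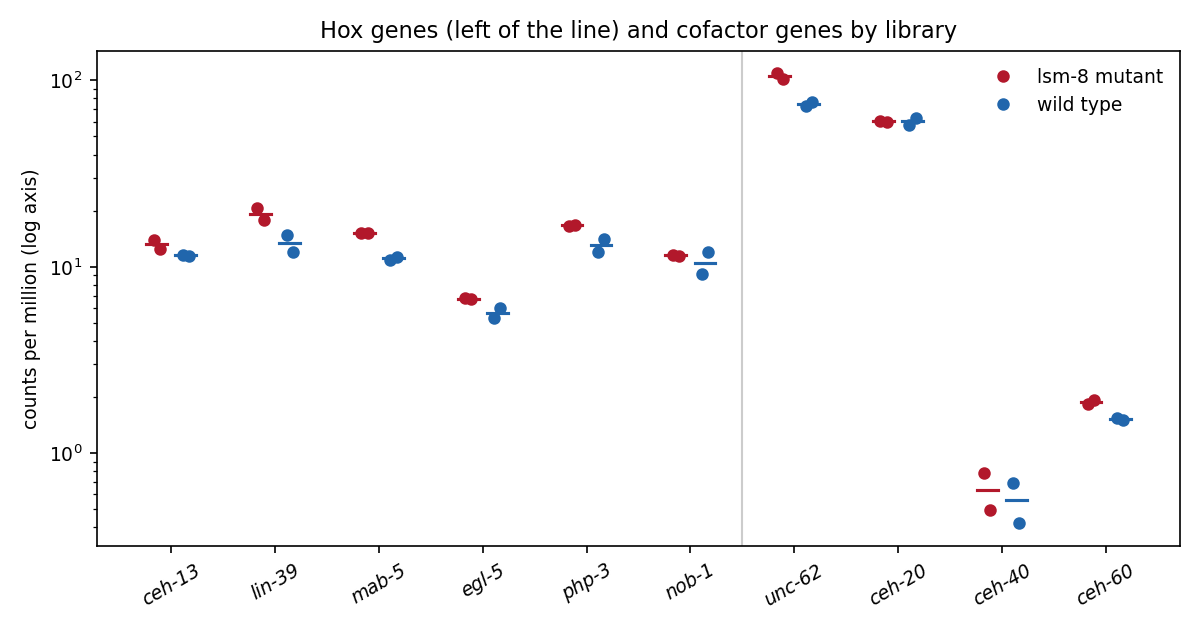
Level in CPM (log axis) of the 6 Hox genes and 4 cofactor genes in each library, with mutant libraries in red and wild-type libraries in blue. Points are libraries (2 per genotype) and short bars are group means. The red points of the called genes lin-39, mab-5, php-3 and unc-62 lie above the blue ones. So do those of ceh-13, egl-5 and ceh-60, which were not called. Those of ceh-20 lie among the blue ones.

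Among the anterior and mid-body Hox genes, ceh-13 is the homolog of fly labial and acts in the embryo and anterior body. It had 13.9 and 12.4 CPM in the mutant libraries and 11.6 and 11.4 CPM in wild type. The groups did not overlap, but the log2 fold change of 0.19 (SE 0.09, 95% interval -0.00019 to 0.39) did not pass the edgeR test (adjusted p = 0.132). It lay between 0.11, without mutant replicate 1, and 0.27, without mutant replicate 2, and was called in none of 15 alternative analyses.

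Its neighbour lin-39, the homolog of Deformed and Sex combs reduced, acts in the mid-body, in vulval precursor cells and in ventral cord neurons. Levels of lin-39 were 20.8 and 17.8 CPM in the mutant libraries and 14.9 and 12.03 CPM in the wild-type libraries. Both mutant libraries were above both wild-type libraries, although the spread within each genotype was wide. The log2 fold change was 0.52 (SE 0.10, 95% interval 0.30 to 0.74, edgeR adjusted p = 0.00106), the largest of the 10 genes.

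The homolog of fly Antennapedia, mab-5, acts in the posterior body, where it turns the migration of the Q neuroblast descendants of the left side. It stood at 15.15 and 15.17 CPM in the mutant libraries, against 10.9 and 11.3 CPM in the wild-type libraries. The groups were well apart, with little spread inside either. Its log2 fold change was 0.45 (SE 0.09, 95% interval 0.27 to 0.63, edgeR adjusted p = 0.000654).

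The remaining Hox genes are of the Abdominal-B type and act in the tail. The lowest of the 6, egl-5, had 6.79 and 6.70 CPM in the mutant libraries and 5.31 and 6.02 CPM in the wild-type libraries. Both mutant libraries were higher, and the log2 fold change of 0.25 (SE 0.12, 95% interval 0.01 to 0.50) had an unadjusted p of 0.0424 and an edgeR adjusted p of 0.116. It was 0.16 without wild type replicate 1 and 0.34 without wild type replicate 2, and neither passed.

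In the posterior pair, php-3 had 16.6 and 16.8 CPM in the mutant libraries, against 11.96 and 14.1 CPM in the wild-type libraries. The mutant libraries were the higher ones, and nearly all the spread was in wild type. Its log2 fold change was 0.36 (SE 0.09, 95% interval 0.16 to 0.55, edgeR adjusted p = 0.00646). The call rested on wild type replicate 1: without it the log2 fold change was 0.24 and the adjusted p was 0.0901.

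The other gene of that pair, nob-1, had 11.6 and 11.5 CPM in the mutant libraries and 9.11 and 11.9 CPM in the wild-type libraries. Here the groups overlapped, as wild type replicate 2 was above both mutant libraries. The log2 fold change was 0.13 (SE 0.11, 95% interval -0.10 to 0.37, edgeR adjusted p = 0.423). It was 0.33 without wild type replicate 2, with an adjusted p of 0.0274, and -0.05 without wild type replicate 1. For both genes the value thus depends on which wild-type library is used.

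The cofactor genes split by level. The most abundant in CPM was unc-62, the Meis gene, which is needed in embryonic patterning and later in the intestine. It stood at 109.2 and 101.4 CPM in the mutant libraries, against 72.98 and 76.4 CPM in the wild-type libraries. These groups were far apart for their spread (log2 fold change 0.50, SE 0.06, 95% interval 0.37 to 0.62, edgeR adjusted p = 5.06e-06).

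The main larval PBC gene is ceh-20, whose product works with LIN-39 and MAB-5. It had 60.7 and 59.8 CPM in the mutant libraries and 57.6 and 63.2 CPM in the wild-type libraries. The mutant libraries lay between the wild-type libraries. The log2 fold change was -0.0037 (SE 0.06, edgeR adjusted p = 0.9752), and its 95% interval ran from -0.14 to 0.13. Its sign depended on the scaling and the libraries used, as the log2 fold change lay between -0.07 and 0.06 over the alternative analyses.

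The other PBC genes were rare. The gene ceh-60, which acts with unc-62 on vitellogenin genes in the adult intestine, had 1.84 and 1.92 CPM in the mutant libraries, against 1.540 and 1.499 CPM in the wild-type libraries. Its groups did not overlap, and the log2 fold change was 0.31 (SE 0.19, 95% interval -0.09 to 0.70, edgeR adjusted p = 0.250). The gene ceh-40, which overlaps with ceh-20 in embryonic function, had 80 and 46 counts in the mutant libraries and 37 and 21 counts in the wild-type libraries. These were 0.780 and 0.496 CPM in the mutant libraries, against 0.695 and 0.420 CPM in the wild-type libraries. The groups overlapped, and the 95% interval of the log2 fold change reached from -0.52 to 0.91, so neither a rise nor a fall within it was detectable at this depth. The sign of the ceh-40 value turned with the libraries used, with -0.17 without mutant replicate 1, -0.12 without wild type replicate 2 and 0.61 without wild type replicate 1.

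**Figure D2:**
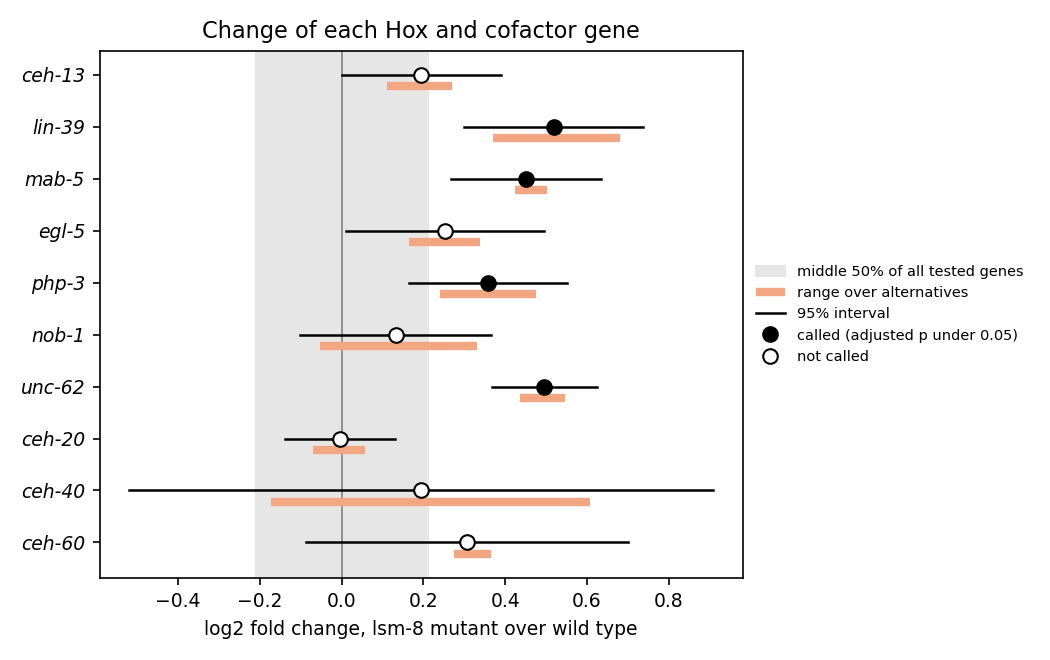
Log2 fold change of each gene, mutant over wild type, with its 95% interval from the edgeR fit (black lines), the range over the alternative analyses (orange) and the middle 50% of all tested genes (grey, -0.21 to 0.21). Filled points (lin-39, mab-5, php-3, unc-62) passed the test, open points did not, and ceh-40 has the widest interval.

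In 7 of the 10 genes both mutant libraries were above both wild-type libraries, where 30.9% of all tested genes showed that order. All 6 Hox genes had a mean between 5 and 20 CPM, and in that range 32.8% of 3599 tested genes were called in either direction and 15.8% were called higher. The calls for unc-62, lin-39 and mab-5 held in each of the 15 alternative analyses, with log2 fold changes from 0.44 to 0.55, from 0.37 to 0.68 and from 0.42 to 0.50. The count of 4 called genes became 3 without wild type replicate 1 and 5 without wild type replicate 2.

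Levels can be set against each other only per length, so CPM were divided by the width in kilobases that the authors give for each gene. On this scale ceh-20 led in both genotypes, with 46.9 ± 0.515 in mutant larvae and 47.0 ± 3.08 in wild-type larvae (CPM per kilobase, SD, n = 2 each). It was followed by unc-62 with 36.3 ± 1.89 in mutant larvae and 25.8 ± 0.828 in wild-type larvae. In mutant larvae the next were mab-5 (14.7) with lin-39 (14.2), then php-3 (12.1) with ceh-13 (12.1), and within each of these pairs the library values overlapped. In wild-type larvae mab-5 (10.8), ceh-13 (10.6), lin-39 (9.91) and php-3 (9.47) each overlapped the next, while mab-5 and ceh-13 were above php-3 in both libraries. Below them in both genotypes, without overlap, came nob-1, egl-5, ceh-60 and, last, ceh-40 at 0.596 in mutant larvae and 0.520 in wild-type larvae. The cofactor genes thus span the range of levels, and the Hox genes lie between them.

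Ratios within a library do not depend on how libraries are scaled. Per length, the ratio of unc-62 to ceh-20 was 0.797 and 0.752 in the mutant libraries, against 0.561 and 0.535 in the wild-type libraries, with no overlap. That of lin-39 to its neighbour ceh-13 was 1.197 and 1.15 in the mutant libraries, against 1.03 and 0.843 in the wild-type libraries. The ratio of mab-5 to egl-5 was 3.35 and 3.40 in the mutant libraries and 3.08 and 2.82 in the wild-type libraries. For php-3 to nob-1 it was 2.04 and 2.09 in mutant larvae and 1.87 and 1.69 in wild-type larvae. In these 4 ratios, chosen for pairs that are neighbours or partners, both mutant libraries were above both wild-type libraries. In each of them the first gene was called higher and the second was not called. Their shared order therefore largely restates those calls and is not a separate result. The ratio of ceh-60 to its partner unc-62 had the other order, with 0.0487 and 0.0546 in the mutant libraries and 0.0609 and 0.0566 in the wild-type libraries. That of ceh-40 to ceh-20 overlapped, with 0.0154 and 0.00995 in the mutant libraries and 0.0145 and 0.00797 in wild type. An exact permutation test, two-sided, cannot go below p = 0.333 with 2 libraries a genotype. The 6 Hox genes together amounted to 65.1 and 61.6 CPM per kilobase in the mutant libraries, against 48.9 and 50.5 in the wild-type libraries. Of this sum lin-39 made up 23.5% and 21.3% in the mutant libraries, against 22.4% and 17.5% in the wild-type libraries, and these overlapped. The share of ceh-13 was 19.6% and 18.5% in the mutant libraries and 21.8% and 20.8% in the wild-type libraries, lower in both mutant libraries. That of mab-5 was 22.6% and 23.9% in the mutant libraries and 21.6% and 21.7% in the wild-type libraries, higher in both mutant libraries.

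The 6 Hox genes lie on chromosome III in 3 pairs, and ceh-20 lies on the same chromosome. The gene unc-62 is on chromosome V, and ceh-40 and ceh-60 are on X. The 2380 tested genes of chromosome III had a median log2 fold change of -0.05, and 9.20% were called higher. On chromosome IV, which carries lsm-8, the 2658 tested genes had a median of 0.09, and 21.8% were called higher. In the WBcel235 annotation these genes have 3 (ceh-13) to 10 exons (unc-62 and ceh-60), and unc-62 has 18 transcripts, which a count per gene cannot separate.

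The genes next to each Hox gene, 3 on either side, were called about as often as other genes. Of 19 such neighbours other than Hox genes, 2 rose and 3 fell, or 26.3% against 28.2% of all genes tested. Their median log2 fold change was -0.06. Of the 22 tested neighbours of the cofactor genes, 3 rose and 5 fell, or 36.4%, with a median of -0.11. Beside lin-39 and ceh-13, the DNA ligase gene lig-4 stood at 31.3 and 34.4 CPM in the mutant libraries, against 31.9 and 29.0 CPM in the wild-type libraries. On the far side of ceh-13, ttr-8 and ttr-32, of a family of transthyretin-related genes, fell by 1.04 and 0.97 on the log2 scale (SE 0.08 and 0.09, edgeR adjusted p = 1.54e-08 and 1.71e-07).

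Between mab-5 and egl-5 lies cyk-7, which had 2.78 and 3.01 CPM in the mutant libraries and 2.44 and 2.92 CPM in wild type and was not called (adjusted p = 0.657). The homeobox gene ceh-23, the third gene beyond egl-5, had 7.46 and 6.63 CPM in the mutant libraries, against 3.92 and 4.30 CPM in the wild-type libraries. It rose more than any Hox gene (log2 fold change 0.78, SE 0.12, edgeR adjusted p = 9.36e-05). Next to nob-1, cest-12 rose by 0.56 (SE 0.08, adjusted p = 3.10e-05), while zyg-8 beside php-3 was not called (-0.08, SE 0.07, adjusted p = 0.415). Apart from ceh-23, these neighbours were named after their values were seen.

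**Figure D3:**
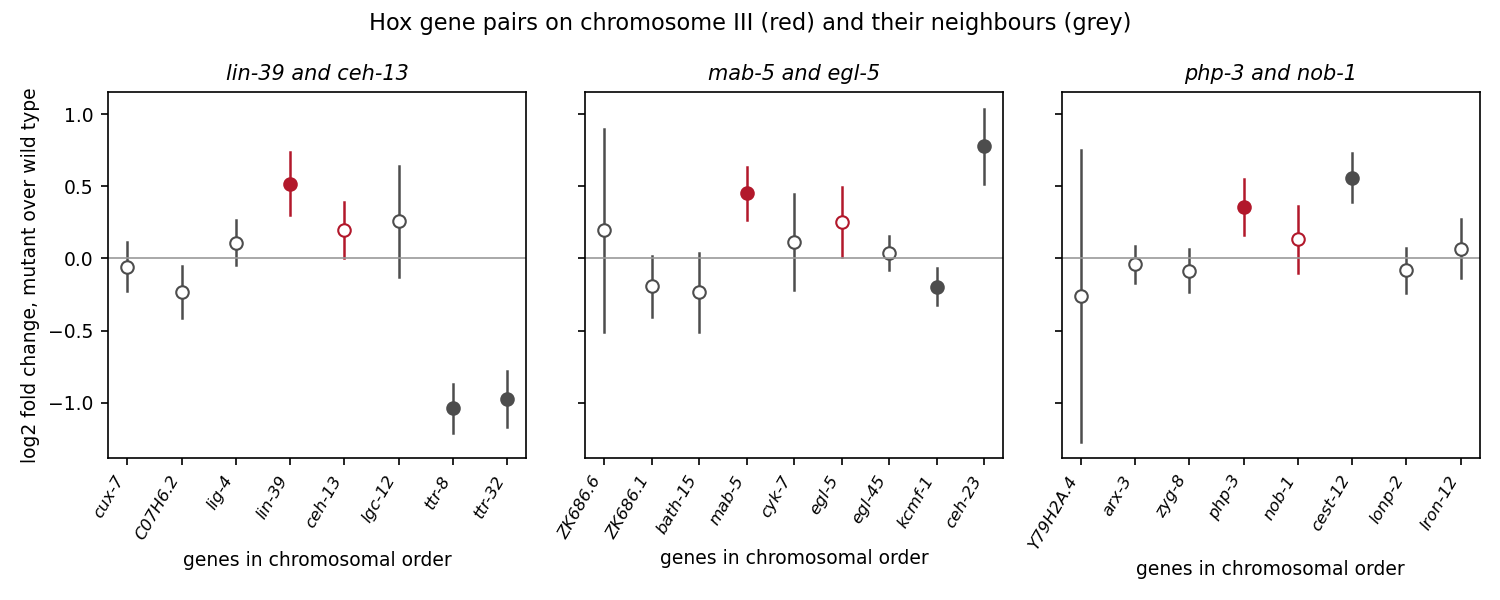
Log2 fold change, mutant over wild type, with 95% interval for the 3 Hox pairs (red) and their neighbours in chromosomal order (grey); filled points passed the test. The red points all lie above 0, while the grey ones lie on both sides, with ttr-8 and ttr-32 near -1 and ceh-23 highest at 0.78.

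Overlapping genes limit 3 of the cofactor values, because it is not stated whether strand was used in counting. The exons of ceh-60 share bases on the opposite strand with ets-4, which stood at 60.9 and 61.8 CPM in the mutant libraries, against 37.8 and 38.2 CPM in the wild-type libraries. The gene ets-4, an ETS transcription factor gene, rose by 0.69 (SE 0.06, edgeR adjusted p = 8.85e-08) and is far more abundant than ceh-60. Its part in the ceh-60 counts was not tested. Exons of ceh-40 likewise share bases with xtr-2 (1.74 and 1.31 CPM in the mutant libraries, 1.18 and 1.92 CPM in wild type), and those of ceh-20 with the noncoding gene F31E3.8, which was not analysed here.

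The genes that keep Hox genes off or on were examined by lists. Of 10 Polycomb-type and other repressors, 1 rose and 3 fell, and their median log2 fold change was -0.01. These 4 calls among 10 genes compare with 28.2% of all genes tested. At 20 to 100 CPM, where most of the list lies, 41.1% of tested genes were called in either direction. The list was thus called about as often as other genes of its level. The PRC2 genes mes-2 and mes-3, whose products lay down H3K27me3, fell slightly. Levels of mes-2 were 29.3 and 28.4 CPM in the mutant libraries and 34.7 and 32.98 CPM in the wild-type libraries (-0.23 on the log2 scale, SE 0.07, edgeR adjusted p = 0.0162). Those of mes-3 were 41.7 and 46.1 CPM in the mutant libraries and 51.4 and 52.0 CPM in the wild-type libraries (-0.24, SE 0.07, adjusted p = 0.0114). The third PRC2 gene, mes-6, which was named after its value was seen, was not called (0.08, SE 0.06, adjusted p = 0.396).

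Among the other repressors sor-1 fell (-0.19) and sor-3 rose (0.28), and sor-1 was named after its value was seen. The call of sor-1 (edgeR adjusted p = 0.0386) was lost in 7 of 15 alternatives, where the adjusted p reached 0.380. The median of the list lay between -0.06 and 0.04 over the alternative analyses, so its sign depended on the setting. The number called, 4 with all libraries, was 3 when wild type replicate 2 was left out and 2 when any 1 of the other libraries was. The call of mes-3 was lost without mutant replicate 1 (adjusted p = 0.167). The call of mes-2 was lost without wild type replicate 1 (0.0950), without mutant replicate 2 (0.0952), with scaling by library totals (0.0539) and on the deposited log2 scale (0.0592). For sor-3 the adjusted p was 0.0709 without wild type replicate 1 and 0.0542 without mutant replicate 1.

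Of 12 genes for Trithorax-type proteins and H3K27 demethylases, 1 rose and 2 fell. With 3 of 12 called, the list was called no more often than the 28.2% of all genes tested. Most of the list lies at 20 to 100 CPM, where 41.1% of tested genes were called. The demethylase gene jmjd-3.1 rose by 0.36 (SE 0.06, edgeR adjusted p = 0.000145), with 63.6 and 64.7 CPM in the mutant libraries and 49.4 and 50.3 CPM in the wild-type libraries. Its relative jmjd-3.2 fell by 0.89 (SE 0.09, adjusted p = 6.32e-07), with 7.90 and 7.69 CPM in the mutant libraries and 14.9 and 14.1 CPM in the wild-type libraries. Both calls held in all 15 alternatives, whereas that of rbbp-5, of the H3K4 methyltransferase complex (-0.22, adjusted p = 0.0385), held in 7 of them. The number called was 3 without wild type replicate 1 and 2 without any 1 of the other 3 libraries.

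Wnt signals are known to regulate lin-39 and mab-5 in larvae. Of 24 Wnt pathway genes 6 rose and 1 fell, or 29.2% against 28.2% of all genes tested. Their median log2 fold change was 0.12. The axin gene pry-1, a negative regulator of the pathway, rose by 0.29 (SE 0.07, edgeR adjusted p = 0.00310) and kept its call in all 15 alternatives. The Frizzled gene lin-17 rose by 0.27 (SE 0.08, adjusted p = 0.0136), and apr-1, a homolog of APC, fell by 0.19 (SE 0.06, adjusted p = 0.0198). The call of lin-17 was lost in 3 of 15 alternatives and that of apr-1 in 6. Without single libraries the number called was 3 without wild type replicate 1, 5 without wild type replicate 2, 2 without mutant replicate 1 and 4 without mutant replicate 2.

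Among 10 other factors of patterning along the body axis or in Hox-expressing neurons 4 rose and none was called lower, with a median of 0.30. Of these 4, all but unc-3 lie on chromosome IV, where 21.8% of tested genes were called higher, against 13.5% of all. The genes mec-3 and ceh-53, described below, also lie on chromosome IV. The part of the chromosome in these calls was not tested. The zinc finger gene tlp-1, which acts in tail development, had 53.04 and 52.5 CPM in the mutant libraries, against 31.2 and 35.5 CPM in the wild-type libraries (log2 fold change 0.66, SE 0.07, edgeR adjusted p = 7.15e-07). The motor neuron gene unc-3 rose by 0.40 (SE 0.10, adjusted p = 0.00720). Both were called in all 15 alternatives, and between 3 and 5 of the 10 were called in each. Without wild type replicate 1, 3 rose and 1 fell.

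Reported targets of Hox and cofactor proteins moved in both directions. Of 14, 4 rose and 1 fell, or 35.7% against 28.2% of all genes tested. The median was 0.11 (-0.0090 without mutant replicate 1). The touch neuron gene mec-3 rose by 0.53 (SE 0.13, edgeR adjusted p = 0.00490) and the cell fusion gene eff-1 by 0.37 (SE 0.10, adjusted p = 0.00747), a call lost without mutant replicate 1 (0.111). The Notch receptor gene lin-12 fell by 0.49 (SE 0.08, adjusted p = 7.16e-05), with 18.5 and 18.6 CPM in the mutant libraries and 26.9 and 25.1 CPM in the wild-type libraries. Vitellogenin genes, the adult targets of UNC-62 and CEH-60, were almost silent, as 4 of 6 stayed under 1 CPM in every library. Of the 3 that could be tested 2 rose, among them vit-6 with 1.36 and 1.38 CPM in the mutant libraries and 0.770 and 0.740 CPM in the wild-type libraries.

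Homeobox genes outside the Hox and cofactor families were the most similar family examined by class of protein. Of 60 tested, 11 rose, 1 fell and 48 were not called, and their median was 0.14, against 4, 0 and 6 of the 10 Hox and cofactor genes with a median of 0.28. Besides ceh-23, ceh-53 rose by 0.67 (SE 0.20, edgeR adjusted p = 0.0190), a call lost in 3 of the 14 alternatives that tested it, and ceh-38 fell by 0.18 (SE 0.06, adjusted p = 0.0256), a call held in 8 of 15. Without wild type replicate 1, 8 of the 60 were called. The 12 calls among the 60 are a smaller share than the 28.2% of all genes tested. The 2 sets differ in level, and calls are rarer at low levels. Of tested genes 7.07% were called under 1 CPM, against 32.8% at 5 to 20 CPM. With a minimum of 5 CPM in 2 libraries, 8 of 30 other homeobox genes and 4 of 8 Hox and cofactor genes were called. The difference between the other homeobox genes and the Hox set was not tested. Counted once each, 35 of the 126 tested genes in these 7 lists were called, 27 higher and 8 lower. This was 27.8%, close to the 28.2% of all genes tested. The number called was 23 without mutant replicate 1.

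**Figure D4:**
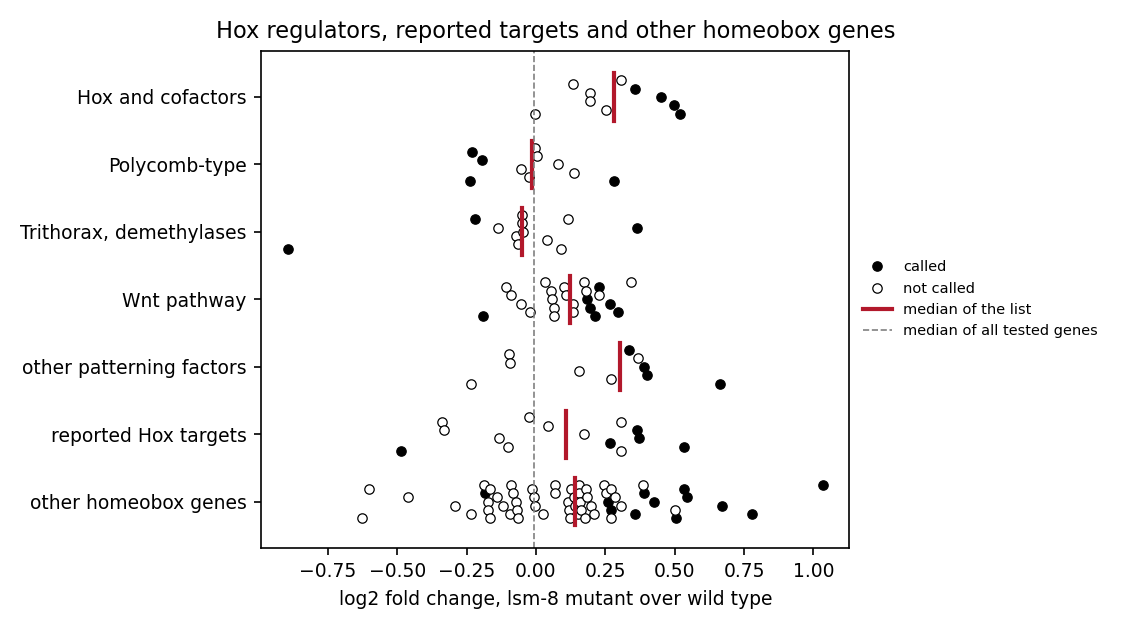
Log2 fold change, mutant over wild type, of each tested gene in the Hox and cofactor set and in lists of regulators, reported targets and other homeobox genes. Points are genes, filled where the test was passed; red bars are list medians and the dashed line is the median of all tested genes. The bars of the Hox set and of other patterning factors lie near 0.3 and those of the 2 repressor and activator lists near 0.

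Marker genes of tissues that express Hox genes also moved with genotype, and their part in the Hox values was not tested. Of 10 body wall muscle markers 6 rose and none fell. Most of them have a mean above 100 CPM, where 22.4% of 1753 tested genes were called higher, against 13.5% of all. Several are wide, and of genes with at least 5 CPM and 2537 bases or more 29.0% were called higher. The summed level of the muscle markers was 16580 to 17470 CPM in the mutant libraries, against 14330 to 14440 CPM in the wild-type libraries. In the epidermis and seam 4 of 9 tested markers rose and none fell, with sums of 227.0 to 240.0 CPM in the mutant libraries and 192.9 to 203.4 CPM in the wild-type libraries. Neuron markers had 3 of 10 higher, with sums of 2146 to 2181 CPM in the mutant libraries and 2005 to 2045 CPM in the wild-type libraries. Of the markers of the intestine, where unc-62 is expressed, 2 of 9 rose and 1 fell. Their sums were 9277 to 9773 CPM in the mutant libraries and 8947 to 8994 CPM in the wild-type libraries. Most of each sum was asp-1, which was named after its value was seen and was not called (edgeR adjusted p = 0.133). It had 7034 and 6655 CPM in the mutant libraries and 6233 and 6262 CPM in the wild-type libraries. The genotype means of asp-1, 6844 CPM in the mutant and 6248 CPM in wild type, lay about as far apart as those of the sums. The sums therefore show no joint rise of the other intestine markers. The intestinal regulator gene elt-2 rose 2.94-fold, with 18.3 and 18.03 CPM in the mutant libraries and 5.65 and 6.696 CPM in the wild-type libraries (edgeR adjusted p = 1.05e-09). The intestinal protease gene cpr-6 fell by 1.05 on the log2 scale, with 88.2 and 93.3 CPM in the mutant libraries and 196.2 and 178.7 CPM in wild type (edgeR adjusted p = 3.47e-10). Of the intestine markers, 5 rose and 1 fell with scaling by library totals, and 5 rose and 2 fell on the deposited log2 scale. Pharynx markers had 5 of 10 higher and 1 lower (sums of 5072 to 5521 CPM in the mutant libraries and 4424 to 4523 CPM in wild type), and germ cell markers had 2 of 9 lower and none higher, with no call without wild type replicate 1. The muscle count was 3 without wild type replicate 1 and it was 4 when replicate 2 of either genotype was left out. The neuron count was 1 higher and 1 lower without wild type replicate 2. The muscle list holds unc-54, whose 3'UTR is also in the xe17 construct. It was the most abundant of the list, with 6182 and 6263 CPM in the mutant libraries and 4986 and 5064 CPM in the wild-type libraries. It thus makes up a large part of the muscle sums and of their difference, and what the construct adds to its counts was not tested. No marker of these 6 tissues was at 0 in all 4 libraries. The epidermis marker nhr-73 had 0 and 2 counts in the mutant libraries and 0 in both wild-type libraries, and the germ cell marker nos-2 had 1 and 0 counts in the mutant libraries and 2 and 1 in wild type.

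Gene width moved with the change across the table. Genes of at least 5 CPM were split by width into 5 groups of like size. The median log2 fold change was 0.06 in the widest group (2537 bases or more) and -0.11 in the narrowest (916 bases or fewer). In the widest group 29.0% of genes were called higher, against 10.1% in the narrowest. Of the Hox and cofactor genes, unc-62 with 2899 bases reaches the widest group and none is in the narrowest. At 20 to 100 CPM, where unc-62 lies, 19.4% of tested genes were called higher. With a correction for width the same number of Hox and cofactor genes, 4, was called and their median was 0.30.

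The genes whose profile over the 4 libraries was nearest to that of lin-39, among 2370 with a locus name and a mean level within 2-fold of its own, were vab-2 (distance 0.0961 on the log2 scale), sft-1 (0.137) and unc-95 (0.154). The ephrin gene vab-2 had 12.3 and 10.9 CPM in the mutant libraries, against 8.62 and 7.61 CPM in wild type. Like lin-39 it was higher in replicate 1 of both genotypes. The likeness is a description only.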

How the data were processed

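The authors deposited a raw count of reads for each gene, and the deposited log2 values are, from the values, the log2 of the count scaled to the mean library total plus 8. Per the submitters' processing notes, Bowtie, edgeR 3.24.0 and the build ce10 were used, without their roles. The sources used here do not give the counting tool, annotation or strand setting. Libraries were stranded total RNA, per the labels' protocols. Names, chromosomes, gene order and exons were taken from WBcel235 tables, another build, so no coordinate is given.

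Counts were tested with edgeR 4.0.16 (R 4.3.3), TMM, filterByExpr and robust quasi-likelihood fits, without a replicate term. SE and 95% intervals derive from the F statistic. Alternatives used DESeq2 1.42.0, limma 3.58.1, other scalings, filters, thinning, a width correction, a replicate block and each library left out. For a gene with no count, the limit was 0.0293 and 0.0323 CPM in the mutant and 0.0563 and 0.0600 CPM in wild type (3 counts, counting error only). Of 230 list entries 228 were found. Members and lists were chosen with earlier results of these data known. A fixed rule picked genes to name: all members, lsm-8, xrn-2, genes overlapping a member, and the 3 nearest in profile to lin-39. From each list come up to 2 called genes of at least 1 CPM by size of rise and up to 2 by size of fall. Not every gene picked by the rule is described. Besides the genes marked above, msp-3, msp-10, msp-19, msp-40, nhr-73 and nos-2 were named after their values were seen, and unc-54 for the construct. Protein and promoter sequences and their planned descriptions were not used here.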

Additional observations from a re-analysis of the deposited data

How the results depend on the processing

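With the replicate block, 4 Hox and cofactor genes, 3655 genes of the table and 26 of the list genes were called, 2 of them in the Wnt list, and no call among the 10 genes changed. Deviations of same-numbered libraries correlated at -0.106 over 9621 genes, and the labels do not say that a number marks a shared culture or day, so the numbers were not taken to pair the samples. With the numbers crossed, an alternative chosen after seeing the data, 4 of the 10 genes and 5652 genes in all were called. The number of list genes called, 35 with all libraries, ran from 23 to 29 when single libraries were left out, and the design then has fewer samples. The number of Hox and cofactor genes called ran from 3 to 5 and was 4 in the other alternatives. With a minimum of 5 CPM, ceh-40 and ceh-60 were not tested. Depth limits ceh-40 most, with 21 to 80 counts per library.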
